A study of Mus musculus with 10 samples.

Results

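The genes of the pentose phosphate and serine synthesis pathways were examined in CUT&Tag profiles of explanted mouse retina. The 9 genes were Pgd, Pgls, Tkt, Taldo1, Rpia, Phgdh, Psat1, Psph and Shmt2, and every peak annotated to 1 of them was taken, whether or not it lay at a promoter. They held 21 of the 108253 peaks, at 7 of the 9 genes, with 10 promoter and 11 other peaks. Phgdh and Shmt2 had no row in the peak table. The study describes a set of this same size as merged from H3K18La peaks of developing retina, so a gene without a row may still carry either mark in the explants.

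In CUT&Tag an antibody tethers a transposase to chromatin carrying a given histone mark, and the fragments it releases are sequenced. The retinas came from wild-type C57BL/6J mice at postnatal day 28, with sclera and pigment epithelium removed, and were kept in culture for 48 hours. All explants shared the same supplemented medium, which contained glucose at 5 mM or 25 mM. Lactylation of histone H3 lysine 18 (H3K18La) was measured in 3 libraries at each level of glucose, acetylation of lysine 27 (H3K27Ac) in 2. Each assay used 500000 dissociated cells, and the labels told no batches apart. Nothing in the labels ties libraries to separate animals, while the study's methods call replicates biological without saying how they were taken, so the p-values measure the spread between these libraries, which may be partly technical.

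The pentose phosphate pathway branches from glycolysis at glucose 6-phosphate. Its oxidative arm yields NADPH, which keeps glutathione reduced and feeds lipid synthesis, and its non-oxidative arm exchanges sugar phosphates with glycolysis and supplies ribose for nucleotides. Serine synthesis branches off further down, at 3-phosphoglycerate, and serine then gives glycine and one-carbon units in the mitochondria. Photoreceptors consume much of the glucose of the retina and renew their lipid-rich outer segments daily, and in the retina serine synthesis is chiefly ascribed to Müller glia. Both marks are found at promoters and enhancers of active genes.

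Sequences upstream of a RefSeq start are shown for 4 genes on GRCm38.p6, since promoter windows with and without a peak differed in composition. Tkt and Pgls had the largest log2 fold change of H3K18La and of H3K27Ac, and the other two are the genes without a peak. Each is given 5′ to 3′ on the gene's strand and stops where an annotated exon begins, and capitals mark the motifs named below.
Tkt, chr14:30548881-30549001, + strand: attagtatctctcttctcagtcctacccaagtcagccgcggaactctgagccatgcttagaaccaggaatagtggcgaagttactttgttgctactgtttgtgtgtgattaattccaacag
Pgls, chr8:71591934-71592175, + strand: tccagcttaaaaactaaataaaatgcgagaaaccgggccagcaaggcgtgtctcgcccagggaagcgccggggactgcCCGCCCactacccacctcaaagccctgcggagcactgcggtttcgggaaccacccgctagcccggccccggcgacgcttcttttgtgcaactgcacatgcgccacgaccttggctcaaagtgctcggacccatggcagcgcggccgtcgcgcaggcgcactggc
Phgdh, chr3:98339991-98340219, - strand: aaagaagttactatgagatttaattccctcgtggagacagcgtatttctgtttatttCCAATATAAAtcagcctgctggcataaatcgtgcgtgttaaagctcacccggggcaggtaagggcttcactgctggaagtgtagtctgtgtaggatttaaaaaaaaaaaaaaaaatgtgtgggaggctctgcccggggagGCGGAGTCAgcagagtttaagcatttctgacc
Shmt2, chr10:127522445-127522694, - strand: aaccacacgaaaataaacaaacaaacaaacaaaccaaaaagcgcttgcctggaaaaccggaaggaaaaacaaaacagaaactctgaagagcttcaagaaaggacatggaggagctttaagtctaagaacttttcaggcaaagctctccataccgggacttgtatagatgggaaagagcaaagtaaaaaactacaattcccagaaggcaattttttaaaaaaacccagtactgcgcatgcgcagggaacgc

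All 9 genes matched the RefSeq promoter windows, which run from 250 bases before to 50 after a start site and gave 11 windows, since Pgd and Psat1 have 2 starts each. The windows of Phgdh and Shmt2 overlapped no peak, and their G + C content was 47.7% and 42.7%. The 9 windows that overlapped a peak had between 51.3% and 67.3%, with Pgls highest and the second start of Pgd lowest. The printed stretches alone had 64.5% at Pgls, 44.6% at Tkt, 44.1% at Phgdh and 40.8% at Shmt2, so the stretch at Tkt was close to that at Phgdh. However, the Tkt stretch lies inside the gene in the GENCODE annotation, where Tkt starts at chr14:30548359. The other printed stretches lie outside their genes, so the stretches are not alike in position. Among all 32851 RefSeq windows, those in a peak had a median of 61.3% and those in no peak a median of 47.7%, and 80.3% of windows with at least 60% G + C overlapped a peak. The Phgdh window held 11 CpG dinucleotides and the Shmt2 window 13, against 20 to 32 in all peak-overlapping windows but that of the second Pgd start, which held 9.

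**Figure D1:**
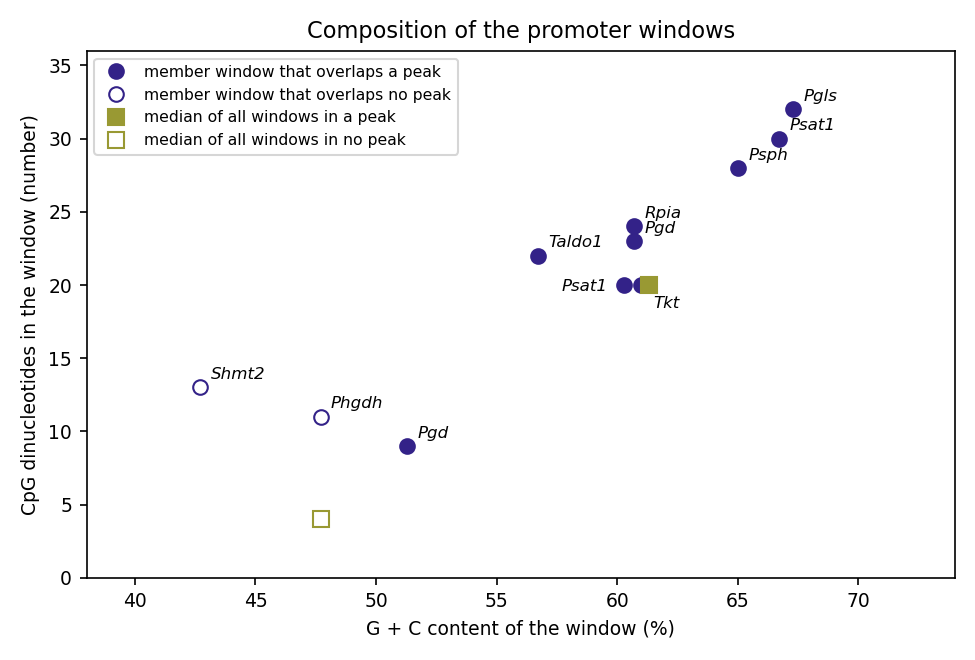
Each circle is the RefSeq promoter window of a gene, with G + C content (%) on the x axis and the number of CpG dinucleotides on the y axis. Open circles overlap no peak, squares give the medians of all windows in a peak and in none, and the Phgdh and Shmt2 windows lie left of all windows that overlap a peak.

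Motifs were read on both strands of the same windows. The GC box GGGCGG was in 7 of the 9 peak-overlapping windows, at least once for each of the 7 genes, and in neither the Phgdh nor the Shmt2 window. It is held by 35.7% of all windows, of which 42.3% overlap a peak. Motif shares among peak-overlapping windows alone, which are richer in G + C, were not computed. The Tkt window had 5 copies, all downstream of the stretch printed above, and the Pgls window had 1, in reverse orientation. CCAAT was in 4 of the 9 windows and in 37.4% of all windows. TATAAA (13.6% of all windows) was found at Phgdh alone, where it shares a base with CCAAT. The antioxidant response element core TGACNNNGC (12.4%) was in the windows of Psph, of the second Pgd start and of Phgdh, where the capitals near the 3′ end mark its reverse complement. The E-box CACGTG (7.2%) and the amino acid response element core TGATGNAA (4.0%) were in none of the 11 windows.

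Signal was given as RPKM, the reads in a peak per kilobase of its length, scaled to a denominator for each library. These denominators ranged from 1358008 to 7424470 reads, and whether normalization factors are part of them is not known, which bears on every difference between glucose levels. Reads in peaks made up between 11.8% and 12.01% of the denominator at 5 mM and between 31.2% and 35.0% at 25 mM for H3K18La, and between 21.1% and 31.5% and then between 56.5% and 69.5% for H3K27Ac. Most peaks were therefore higher at 25 mM on this scale, and the median log2 fold change of the 14815 tested promoter peaks was 0.97 for H3K18La and 1.23 for H3K27Ac. Each gene is set against these medians below. The test covered the 72467 peaks whose RPKM averaged 1 or more over the 10 libraries, 16 of them at these genes, and used limma on log2(RPKM + 0.5), which understates the change of weak peaks. The Benjamini-Hochberg adjusted p was taken over all tested peaks, with a threshold of 0.05.

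For H3K18La, 1 of the 16 tested peaks passed, the Tkt promoter, while 33.3% of all tested peaks and 26.8% of tested promoter peaks passed as higher at 25 mM. For H3K27Ac, 8 of the 16 passed, all higher at 25 mM, against a background of 33.5% of all tested peaks and 58.0% of promoter peaks. Of the 10 promoter peaks, 6 passed for H3K27Ac, each the strongest of its gene, which is close to the share of all promoters. The glucose groups did not overlap, with 25 mM higher, at 4 of the 10 for H3K18La (50.4% of tested promoters) and at 9 of the 10 for H3K27Ac (86.1%). The strongest promoters of the 7 genes held 1 to 22 reads in an H3K18La library and 15 to 295 in an H3K27Ac library.

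**Figure D2:**
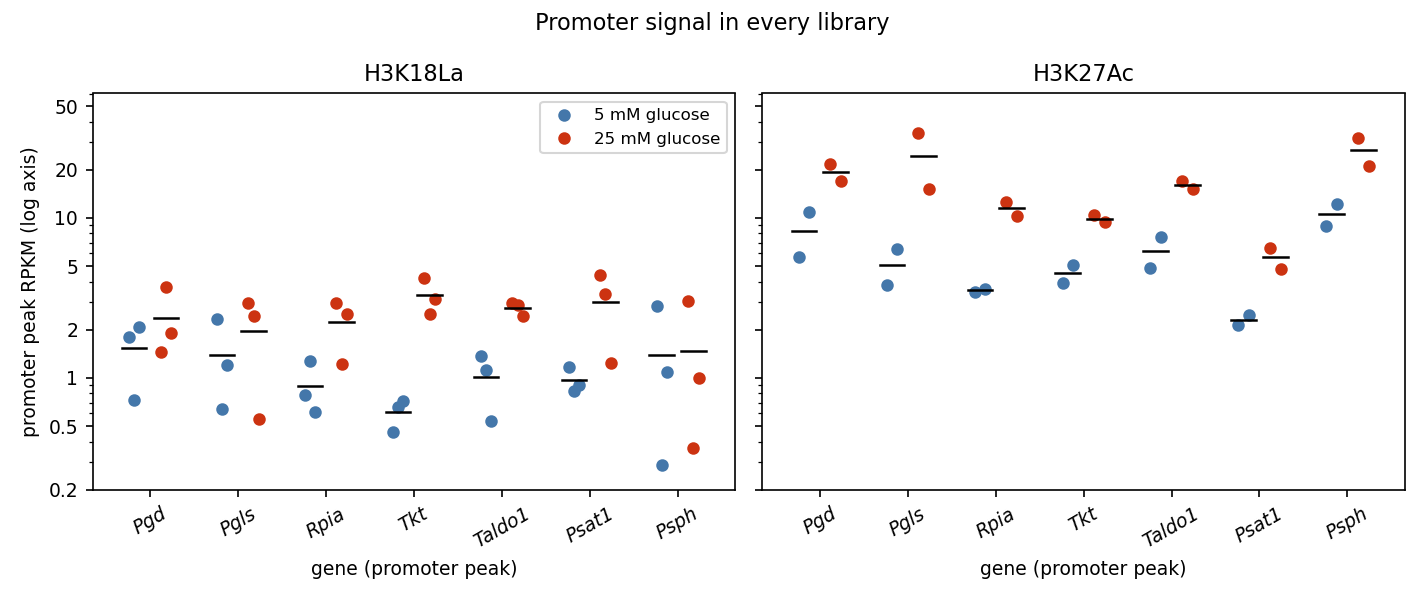
RPKM of the strongest promoter peak of each gene (log y axis), with 1 point per library, blue at 5 mM and red at 25 mM glucose, and a black bar at the group mean. The H3K27Ac groups are separate at all 7 genes, while the H3K18La groups are separate at Tkt, Taldo1 and Psat1.

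The oxidative arm was represented by Pgls, the lactonase that opens the ring made from glucose 6-phosphate, and Pgd, the dehydrogenase that makes the second NADPH and releases CO2. At the Pgls promoter (chr8:71591624-71592838, + strand gene) H3K27Ac was 3.81 and 6.36 RPKM in the 5 mM libraries and 33.8 and 15.1 at 25 mM. Both high-glucose libraries lay above both low-glucose ones but differed from each other more than 2-fold, with means of 5.08 ± 1.81 and 24.4 ± 13.2 (SD, n = 2). The log2 fold change was 2.09 ± 0.48 (SE, limma, adjusted p = 0.000839), which is 0.85 above the promoter median and higher than 96.7% of tested promoters. H3K18La at the same peak was 2.34, 0.64 and 1.21 RPKM at 5 mM and 2.93, 2.43 and 0.56 at 25 mM. These groups overlapped, and the log2 fold change of 0.31 ± 0.58 (SE) did not pass (limma, adjusted p = 0.684). It ranged from -0.0079, without replicate 1 at 25 mM, to 0.84 when 1 library was left out.

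A further Pgls peak lay in its 3′ UTR (chr8:71595942-71596557), where H3K27Ac was 4.88 and 7.06 RPKM at 5 mM and 22.1 and 17.9 at 25 mM. It rose by 1.68 ± 0.49 on the log2 scale (SE, limma, adjusted p = 0.00598) and was the strongest H3K27Ac peak among the 11 outside promoters. For H3K18La the same peak was at 0.77, 0.94 and 2.39 RPKM and then at 5.78, 2.79 and 2.74. The groups did not overlap, and the log2 fold change was 1.22 ± 0.47 (SE, limma, adjusted p = 0.0636).

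At the Pgd promoter (chr4:149166129-149167185, - strand gene) H3K27Ac was 5.69 and 11.0 RPKM at 5 mM and 21.7 and 16.9 at 25 mM. It rose on the log2 scale by 1.22 ± 0.50 (SE, limma, adjusted p = 0.0428), within 0.01 of the promoter median, and the sign turned to -0.16 under quantile normalization. Without replicate 1 at 5 mM it was 0.78 (limma, adjusted p = 0.157). H3K18La was 1.79, 0.73 and 2.09 RPKM at 5 mM and 1.44, 3.72 and 1.91 at 25 mM. The groups overlapped and differed by 0.48 ± 0.48 on the log2 scale (SE, limma, adjusted p = 0.450), a value of 0.15 without replicate 2 at 5 mM and 0.16 without replicate 2 at 25 mM. A Pgd exon peak (chr4:149153805-149154363) passed for neither mark.

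In the non-oxidative arm, Rpia isomerises ribulose 5-phosphate to ribose 5-phosphate, and the transketolase Tkt and the transaldolase Taldo1 shuttle carbon units back to glycolytic sugars. At the Tkt promoter (chr14:30548112-30550168, + strand gene) H3K18La was 0.46, 0.66 and 0.72 RPKM at 5 mM and 4.204, 2.51 and 3.11 at 25 mM. These values rest on 2, 7 and 2 reads and on 17, 21 and 19 reads. The groups lay far apart, with means of 0.61 ± 0.13 and 3.28 ± 0.86 (SD, n = 3), a 5.36-fold ratio. The log2 fold change was 1.75 ± 0.44 (SE, limma, adjusted p = 0.0116), 0.78 above the promoter median and higher than 87.3% of tested promoters. Without replicate 1 at 25 mM the adjusted p was 0.0544.

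H3K27Ac at the Tkt promoter was 3.93 and 5.09 RPKM at 5 mM and 10.4 and 9.43 at 25 mM. The groups were separate, but the log2 fold change of 1.06 ± 0.46 (SE) did not pass (limma, adjusted p = 0.0566), lay 0.17 under the promoter median and turned to -0.12 when libraries were scaled to reads in peaks. A weaker Tkt peak annotated as promoter (chr14:30557601-30559989), at another start, had H3K18La of 0.81 to 0.99 RPKM at 5 mM and 1.03 to 1.70 at 25 mM and passed for neither mark. Upstream of the gene, an intergenic peak (chr14:30541429-30542242) had H3K27Ac of 2.84 and 4.95 RPKM at 5 mM and 10.1 and 7.45 at 25 mM. It rose by 1.10 ± 0.45 on the log2 scale (SE, limma, adjusted p = 0.0448). For H3K18La it was at 0.95 to 3.62 RPKM at 5 mM and 2.42 to 4.37 at 25 mM, and the groups overlapped. Its mean over the 6 H3K18La libraries was the highest among the non-promoter peaks, although the Pgls 3′ UTR peak was higher at 25 mM. A second intergenic Tkt peak, nearer to the gene, passed for neither mark.

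At the Taldo1 promoter (chr7:141391576-141392952, + strand gene), its only peak, H3K27Ac was 4.87 and 7.60 RPKM at 5 mM and 17.1 and 15.3 at 25 mM. It rose on the log2 scale by 1.34 ± 0.48 (SE, limma, adjusted p = 0.0235), 0.10 above the promoter median. H3K18La was 1.38, 1.12 and 0.53 RPKM at 5 mM and 2.96, 2.86 and 2.45 at 25 mM. The groups did not overlap, yet the log2 fold change of 1.15 ± 0.44 (SE) did not pass (limma, adjusted p = 0.0626). It passed with a minimum mean RPKM of 2 (adjusted p = 0.0448), with voom (0.0301) and with all 10 libraries in 1 fit (0.0190).

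At the Rpia promoter (chr6:70791542-70792748, - strand gene) H3K27Ac was 3.45 and 3.60 RPKM at 5 mM and 12.7 and 10.3 at 25 mM. The replicates were close, and the log2 fold change was 1.57 ± 0.46 (SE, limma, adjusted p = 0.00624), 0.33 above the promoter median. H3K18La was 0.79, 1.28 and 0.61 RPKM at 5 mM and 2.95, 1.22 and 2.51 at 25 mM. One 25 mM library lay inside the low-glucose range, and the log2 fold change of 0.94 ± 0.49 (SE) did not pass (limma, adjusted p = 0.153). The other 3 Rpia peaks, a second promoter and 2 intergenic peaks upstream, passed for neither mark.

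**Figure D3:**
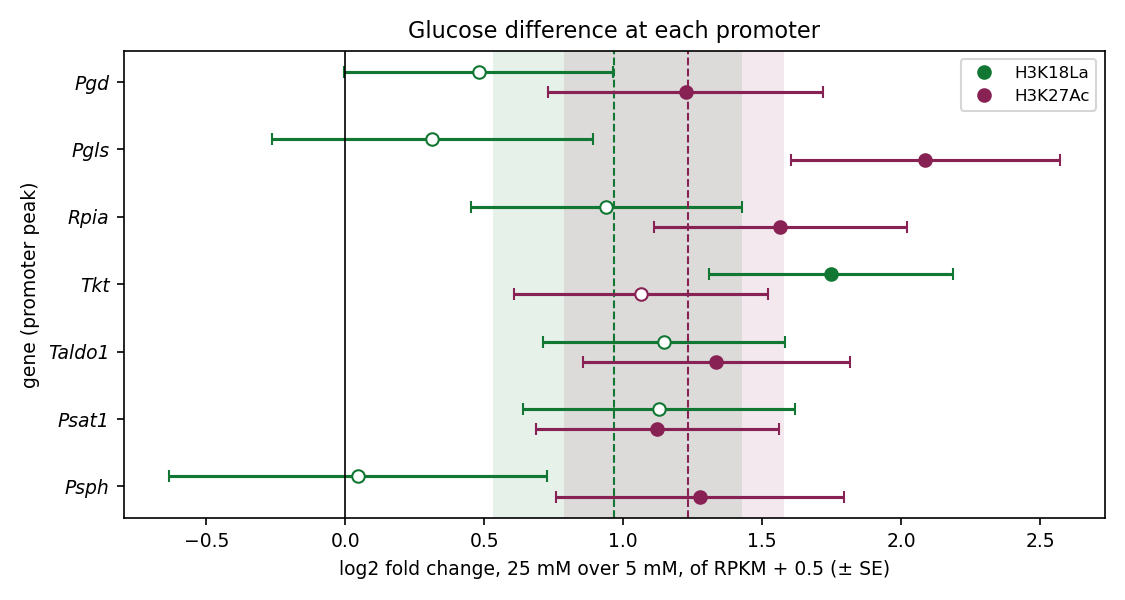
Log2 fold change (25 mM over 5 mM, of RPKM + 0.5) of each promoter with its SE, filled where the adjusted p was under 0.05. Dashed lines and bands give the median and the interquartile range of all tested promoters for each mark. Tkt lies right of its band for H3K18La and Pgls for H3K27Ac, while the other filled points lie inside the H3K27Ac band.

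Serine synthesis runs from Phgdh, the dehydrogenase that commits 3-phosphoglycerate to it, through the transaminase Psat1 to the phosphatase Psph, and Shmt2 is the mitochondrial enzyme that splits serine into glycine and a one-carbon unit. At the Psat1 promoter (chr19:15923956-15925577, - strand gene), which covers both RefSeq starts, H3K27Ac was 2.14 and 2.48 RPKM at 5 mM and 6.51 and 4.82 at 25 mM. It rose on the log2 scale by 1.12 ± 0.44 (SE, limma, adjusted p = 0.0354), 0.11 under the promoter median. Without replicate 1 at 5 mM the adjusted p was 0.0548. H3K18La was 1.17, 0.83 and 0.91 RPKM at 5 mM and 4.39, 3.34 and 1.25 at 25 mM. The groups did not overlap, although the lowest library at 25 mM lay close to the highest at 5 mM, and the log2 fold change of 1.13 ± 0.49 (SE) did not pass (limma, adjusted p = 0.0952). It passed with voom (adjusted p = 0.0184), with all 10 libraries in 1 fit (0.0425) and without replicate 3 at 25 mM (0.0419).

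The 4 other Psat1 peaks were intergenic, between 32679 and 46653 bp from the start of a retained-intron transcript of Psat1. They lay farther still from the promoter peak above, and none reached the mean RPKM of 1 needed for the test. They held 0 to 7 reads in any library of either mark. Psat1 had the weakest H3K27Ac promoter of the 7 genes at both glucose levels.

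The strongest Psph promoter peak (chr5:129786878-129787550, - strand gene) also covers the start of the divergent gene Cct6a, a chaperonin subunit, so its signal cannot be assigned to 1 gene. Mean H3K27Ac there was the highest of the 7 genes at both glucose levels, although Pgls was higher in replicate 1 at 25 mM (33.8 RPKM). At Psph, H3K27Ac was 8.93 and 12.2 RPKM at 5 mM and 31.8 and 21.2 at 25 mM. It rose on the log2 scale by 1.28 ± 0.52 (SE, limma, adjusted p = 0.0439), 0.04 above the promoter median, and the sign turned to -0.21 under quantile normalization. Without replicate 1 at 5 mM the adjusted p was 0.0567. H3K18La was 2.82, 0.29 and 1.09 RPKM at 5 mM and 3.02, 0.37 and 1.00 at 25 mM, values that rest on 1 to 4 reads each. Its log2 fold change was 0.05 ± 0.68 (SE, limma, adjusted p = 0.962), with a 95% interval from -1.45 to 1.54, so a difference as large as the promoter median was not detectable here at this depth. The second Psph promoter (chr5:129778992-129779862), which holds no other start, had H3K27Ac of 1.86 and 2.77 RPKM and then of 3.67 and 4.33, and passed for neither mark (H3K27Ac log2 fold change 0.69 ± 0.43, SE, limma, adjusted p = 0.198). An intergenic Psph peak was under the minimum RPKM.

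No analysed peak overlapped the Phgdh gene (chr3:98313170-98339990, - strand), and the nearest one to its start was the Zfp697 promoter, 42277 bp away. No peak overlapped Shmt2 either (chr10:127517123-127522444, - strand), whose nearest peak lay 2623 bp upstream in the 3′ UTR of Nxph4 (chr10:127525067-127526057). That neighbouring peak had mean H3K27Ac of 1.44 ± 0.72 RPKM at 5 mM and 5.20 ± 2.17 at 25 mM (SD, n = 2), and mean H3K18La of 1.31 ± 0.52 and 2.61 ± 0.97 (SD, n = 3). The peak table gives no value at the Phgdh and Shmt2 promoters themselves, so no level was analysed there.

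**Figure D4:**
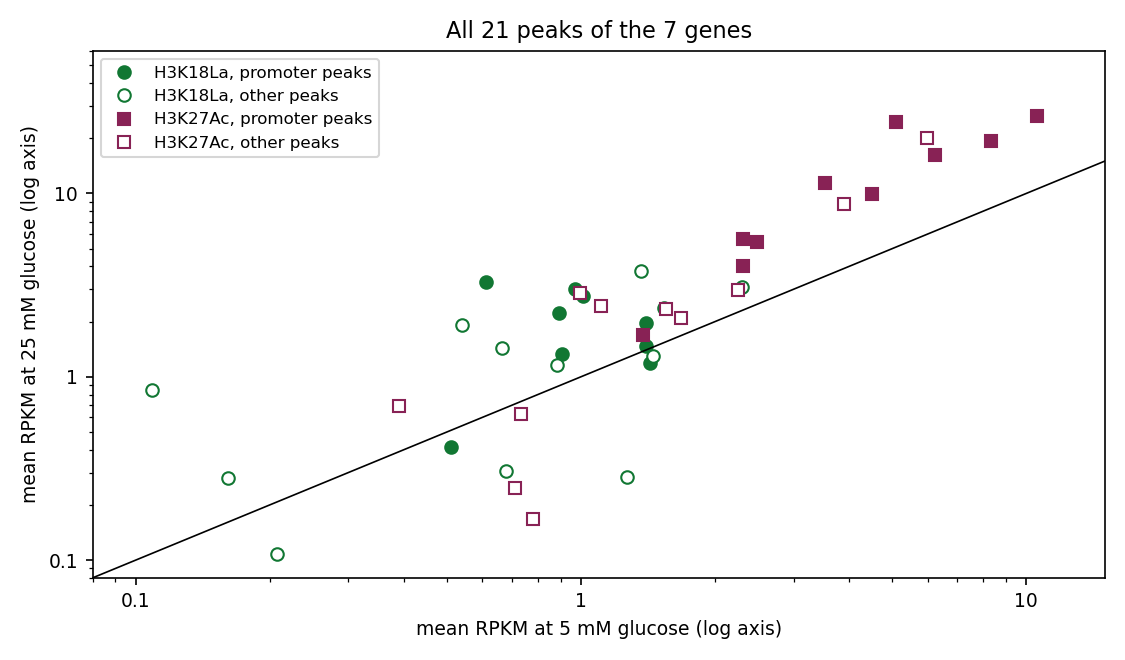
Mean RPKM of all 21 peaks at 5 mM (x axis) and 25 mM glucose (y axis), both on log axes, with filled symbols for promoter peaks and a line where the groups are equal. All 10 promoter peaks lie above the line for H3K27Ac, and the points below it are peaks with means under 2 RPKM at both levels.

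Ranks among all 17144 promoter peaks within a library do not depend on how libraries are scaled, and they are given as a description. They do depend on depth, and those of H3K18La rest on few reads. At 5 mM these were 2, 7 and 2 reads at Tkt, and 4, 1 and 1 at Psph, whose percentiles there ran from 9.7 to 93.2. For H3K18La, Tkt moved from a median percentile of 32.6 at 5 mM to 74.1 at 25 mM, and the 3 libraries of each level did not overlap. Psat1 moved from 52.2 to 75.7, with 1 library at 25 mM below all those at 5 mM, Rpia from 42.2 to 59.2 and Taldo1 from 63.5 to 67.9, both with overlap. Psph went from 59.8 down to 28.5, Pgd from 79.6 to 56.9 and Pgls from 64.0 to 58.9, all with overlap. For H3K27Ac, Pgls moved from 70.5 to 86.7, without overlap, and Rpia from 56.3 to 62.9, with overlap. Psph went the other way, from 95.3 to 91.2, as did Tkt, from 66.3 to 58.4, both without overlap, and Pgd went from 88.4 to 82.3 with 1 library of each level at 84.6. Taldo1 went from 79.7 to 75.9, with overlap. Psat1 lay between 38.3 and 43.4 in the 4 H3K27Ac libraries.

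**Figure D5:**
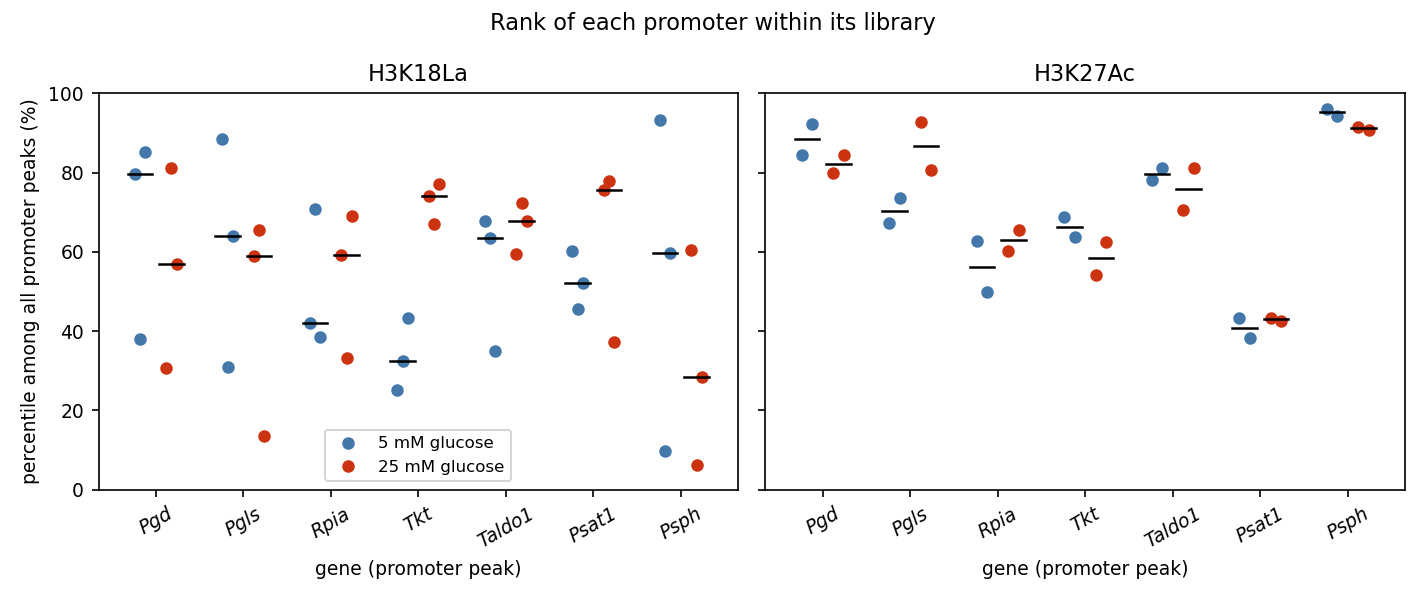
Percentile of each promoter among all promoter peaks of the same library (y axis, %), with 1 point per library and a bar at the group median. Tkt for H3K18La and Pgls for H3K27Ac are higher in every 25 mM library than in every 5 mM library.

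Whether the 2 marks responded differently was tested by a glucose by mark term over all 10 libraries. None of the 16 peaks passed (limma, smallest adjusted p = 0.903), as for all 72467 tested peaks (0%), of which 5.04% had an unadjusted p under 0.05. The largest difference among the promoters was at Pgls, where the log2 fold change of H3K27Ac exceeded that of H3K18La by 1.77 ± 0.80 (SE, limma, unadjusted p = 0.0425). At Tkt the difference was -0.68 ± 0.55 (SE), with a 95% interval from -1.86 to 0.49. At Psat1 it was -0.01, with an interval from -1.42 to 1.41 that leaves room for large differences in either direction.

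Other genes of both pathways were read at their strongest promoter peak. Of 12 further pentose phosphate genes, 6 had such a peak, and 0 of them passed for H3K18La and 3 for H3K27Ac, all higher, against 26.8% and 58.0% of all tested promoters, with median log2 fold changes of 0.71 and 1.10. For H3K27Ac, Prps1, which makes phosphoribosyl pyrophosphate from ribose 5-phosphate, was highest with 1.41 (limma, adjusted p = 0.0114) and Pgm2, a phosphopentomutase, lowest with 0.38 (adjusted p = 0.510). For H3K18La, Pgm2 was highest with 1.15 (limma, adjusted p = 0.0571) and the deoxyribose-phosphate aldolase Dera lowest with 0.34 (adjusted p = 0.529).

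Of 23 further serine and one-carbon genes, 18 were tested, and 3 rose for H3K18La (26.8% of all tested promoters) and 10 for H3K27Ac (58.0%), with medians of 0.96 and 1.25. The lowest were Mthfd2l with 0.02 (limma, adjusted p = 0.970) for H3K18La and Cbs, which directs serine into cystathionine, with 0.13 (adjusted p = 0.853) for H3K27Ac. The medians of this list lay near those of all tested promoters, 0.97 and 1.23, while those of the pentose phosphate list lay below them.

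The retina holds many cell types, and in bulk tissue a change in the number of cells of a type and a change of signal per cell cannot be told apart. All 9 rod promoters in a list of rod markers were called higher at 25 mM for both marks (26.8% of all tested promoters for H3K18La, 58.0% for H3K27Ac), with median log2 fold changes of 2.45 and 2.09, and Cnga1 was at 0 in 1 H3K18La library at 5 mM. Their summed RPKM went from between 14.5 and 18.8 to between 67.7 and 155 for H3K18La, and from between 57.4 and 102.4 to between 267 and 469 for H3K27Ac. Of 8 Müller glia markers, 7 were tested, with 0 higher for H3K18La (median 0.91, summed RPKM from 6.51 to 8.29 at 5 mM and from 14.6 to 18.9 at 25 mM) and 4, near the share of all promoters, for H3K27Ac (median 1.19, summed RPKM from 15.0 to 20.03 and from 37.0 to 44.9). For H3K18La, Rlbp1 was at 0 in 2 libraries and Dkk3, Kcnj10 and Slc1a3 were at 0 in 1 each. The part of cell composition in the values of the 7 genes was not tested.

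Among the markers of other cells, set against 26.8% of tested promoters called higher for H3K18La and 58.0% for H3K27Ac, 3 of 5 tested cone promoters rose for H3K18La and 1 for H3K27Ac, 0 and 4 of 4 bipolar promoters, and 1 of 2 amacrine promoters for each mark. Neither the 1 tested microglia promoter nor any ganglion cell promoter (0 tested) was called. Of 2 pigment epithelium promoters, 1 rose for H3K18La and 0 for H3K27Ac. Of 2 endothelial promoters, that of Cldn5 fell for H3K27Ac (limma, adjusted p = 0.0476) and was at 0 in 1 H3K27Ac library at 25 mM. For H3K27Ac, 8 of all 14815 tested promoters were called lower.

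The H3K27Ac comparisons have 2 limits. With 2 libraries per level, the fit took the spread of each peak wholly from the trend over all peaks, and 0 of the 16 peaks passed when either of the 25 mM libraries was left out, in fits that called 9 of all 72467 peaks without replicate 1 and 878 without replicate 2. When libraries were scaled to the reads in peaks, centred or quantile normalised, which moved the median of all tested peaks by -1.05 to -0.69, 0 peaks of these genes passed for either mark. Those fits called 0 of all 72467 peaks after scaling to reads in peaks or quantile normalization, and 1239 for H3K18La and 965 for H3K27Ac after centring, so the count of 0 is not particular to these genes and the marker promoters are subject to the same limit.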

How the data were processed

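The authors used nf-core/cutandrun for alignment to GRCm38, MACS for peak calling, annotated peaks with ChIPseeker 1.34.1 and deposited RPKM values of 1 common peak set, computed with csaw. Promoter peaks lay from -1000 to 500 bp around a start site. The extract protocol in the labels names an H3K9me3 antibody and MNase, whereas the sample titles and methods name H3K27Ac and the methods Tn5. The titles were followed, so the identity of the second mark rests on them. The authors' own fold changes and p-values for H3K18La were not used. RPKM values were whole multiples of 1 read (100% of values, within 0.1 read), which gave reads and denominators. It is unknown whether normalization factors are part of these denominators. All replicate pairs differed by more than sampling noise (chi-square per degree of freedom 1.04 to 2.87 over peaks with at least 10 reads) and were kept apart.

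log2(RPKM + 0.5) was fitted for each mark alone with limma 3.58.1 in R 4.3.3 (lmFit, eBayes with trend), in place of the count model named in the study's methods, as the deposited unit was RPKM, with voom on the recovered reads as an alternative. The interaction used all 10 libraries. The scripts were tested on simulated data. Genes were described by the promoter peak with the highest mean RPKM, and other peaks were named where they passed or had the highest mean. Pathway lists gave counts and medians, with the highest and lowest gene, and marker lists gave counts. A further pathway gene that this rule names is not reported here. The genes, lists and tests were chosen with earlier results of these data known. The alternatives were other minimum RPKM values, pseudocounts, scalings, moderation, 1 fit of all libraries, a threshold of 0.01, a replicate block and leaving out each library. Replicate numbers were not used to pair the libraries in the main fits. Deviations of same-numbered libraries correlated by 0.01 to 0.03 between glucose levels, and by -0.02 to 0.19 between marks. With a median of 1 to 11 reads per peak in a library, such correlations cannot exclude pairing. Sequences came from RefSeq (GRCm38.p6), exons from RefSeq and GENCODE M21.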

Additional observations from a re-analysis of the deposited data

How the results depend on the processing

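For H3K18La, the count of peaks past the threshold (1 of 16) was 3 with a minimum mean RPKM of 2, 3 with voom, 5 with all 10 libraries in 1 fit, 0 at a threshold of 0.01 and 0 to 2 when 1 library was left out (0 without replicate 1 at 25 mM, 2 without replicate 3 of either level), and 0 when scaled to reads in peaks, centred or quantile normalised. It stayed at 1 with the replicate block. For H3K27Ac, the count (8 of 16) was 0 with no minimum RPKM (as for all 108253 peaks), 10 of 10 tested with a minimum of 2, 11 with voom, 5 with a pseudocount of 0.1, 3 with all 10 libraries in 1 fit, 3 at a threshold of 0.01, 0 under each of the 3 scalings and 0 to 10 when 1 library was left out (0 without either library at 25 mM, 5 without replicate 1 at 5 mM, 10 without replicate 2 at 5 mM). With the replicate block it was 2, Pgls and Rpia. The pairing check cannot decide whether such a block is needed, as reads per peak were few. The count for the difference between marks was 0 in all settings. In the fits without 1 H3K27Ac library at 25 mM, 9 and 878 of all 72467 peaks were called, so a count of 0 there says little of these genes.

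H3K18La log2 fold changes that turned sign did so when scaled to reads in peaks (Pgd -0.63, Pgls -0.73, Psph -0.89, Rpia -0.11), centred (Pgd -0.40, Pgls -0.56, Psph -0.83) or quantile normalised (Pgd -0.36, Pgls -0.49, Psph -0.80, Rpia -0.029). When 1 library was left out, Pgls ranged from -0.0079 to 0.84 and Psph from -0.50 to 0.57. None of these was called. For H3K27Ac the sign turned for Tkt when scaled to reads in peaks (-0.12), and for Pgd (-0.16), Psph (-0.21) and Tkt (-0.087) when quantile normalised. Tkt for H3K18La kept its sign and passed in 13 of 17 alternatives, with adjusted p-values (limma) from 0.000172 to 0.594 and log2 fold changes from 0.70 to 2.24. Pgls for H3K27Ac kept its sign and passed in 9 of 15, with log2 fold changes from 0.77 to 2.66. The alternatives for single genes in the comparison of marks were added after the data were seen. There the difference turned for Psat1 with a pseudocount of 1 (0.069) and when centred (0.18), and for Taldo1 with a pseudocount of 0.1 (-0.052) and when quantile normalised (-0.20). When 1 library was left out, Psat1 ranged from -0.44 to 0.30 and Taldo1 from -0.11 to 0.48. The cause was not tested. Taking all promoter peaks of a gene together lowered the 25 mM levels of Psph (H3K27Ac, 13.8 RPKM, and H3K18La, 0.87, the latter within 1 SD), Rpia (H3K27Ac, 7.01) and Tkt (H3K18La, 2.23, and H3K27Ac, 7.53).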
